A study of Homo sapiens with 6 samples.

Results

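The GADD45 genes (*GADD45A*, *GADD45B* and *GADD45G*) and the BTG/TOB genes (*BTG1*, *BTG2*, *BTG3*, *TOB1* and *TOB2*) encode small proteins that restrain proliferation. These 8 genes were taken by symbol from the 21447 genes of the transcript tables, with the estimated counts of all transcripts of a gene summed. The RNA came from U-2 OS, a human osteosarcoma cell line, and therefore from 1 line. Cells were left untreated (3 libraries) or received 4 Gy of ionizing radiation and were harvested 24 h later (IR, 3 libraries), with no other dose or time. The study calls the samples of a group independent, and the labels do not say whether they came from separate cultures, so the p-values measure the spread between these libraries. In RNA from a whole population, fewer cells expressing a gene and less of its RNA per cell cannot be told apart.

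GADD45 proteins are stress sensors without known enzymatic activity. They bind PCNA, p21 and the CDK1-cyclin B1 kinase, and they activate MAP3K4, a kinase upstream of p38 and JNK. BTG/TOB proteins share an amino-terminal domain that binds the CNOT7 and CNOT8 deadenylases of the CCR4-NOT complex, by which they promote shortening of poly(A) tails. *GADD45A* and *BTG2* are textbook genes of the response to DNA damage.

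The 6 libraries held 18573309 to 22953834 estimated counts, except IR replicate 3 with 45308792. IR replicate 3 also stood apart within its group. Its counts differed from those of IR replicates 1 and 2 by a chi-square per gene of 29.1 and 32.3, compared with 5.96 between these 2 and 3.46 to 9.22 between untreated libraries. Of the osteoblast lineage markers, *COL1A1* (443 to 641 TPM, the deposited abundance per transcript length and library total) and *SPP1* (124 to 190 TPM) were abundant, *RUNX2* lay between 3.36 and 4.87 TPM, *ALPL* lay between 0.727 and 2.14 TPM, *COL1A2* and *BGLAP* were under 1 TPM and *SP7* was listed at 0 in every library. *CD3E*, *HBA1* and *HBB* of the blood list were at 0 and *PTPRC* reached 3.47 TPM, whereas the 3 endothelial markers together reached 2.57 TPM. The 4 epithelial markers summed to 320 to 353 TPM in untreated and 378 to 467 TPM in IR libraries. Most of this was *KRT8* (162 to 179 TPM untreated, 184 to 207 TPM IR) and *KRT18* (142 to 159 and 174 to 245 TPM). *EPCAM* was at 14.5 to 15.9 TPM and *CDH1* at 0.616 to 1.87 TPM over both groups. The part of the shift of this sum in the results was not tested. Fold changes moved with the GC content of genes, which is given beside each member that it touches.

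The 2 leading *GADD45A* transcripts, between which most of the gene's reads were divided, differ in their coding sequence. The canonical GADD45A-202 has 54 bases at the start of exon 3 (chr1:67686350-67686403, GRCh38, plus strand) that GADD45A-205 lacks, or 18 codons with the frame kept. The stretch is shown in capitals, 5′ to 3′, between the 20 bases before and after it in the transcript, since it is one place where their reads can be told apart.
GADD45A-202: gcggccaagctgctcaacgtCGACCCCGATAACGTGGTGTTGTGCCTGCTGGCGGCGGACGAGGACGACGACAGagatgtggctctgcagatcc
GADD45A-205: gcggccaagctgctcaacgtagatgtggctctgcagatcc

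Of the 8 genes, 7 had enough counts to be tested, and 3 of these (*GADD45A*, *BTG1* and *BTG2*) were higher and 1 (*GADD45B*) was lower in the IR libraries (quasi-likelihood test of edgeR, called where the p adjusted over all genes was under 0.05). Across the 14323 genes tested, 15.5% were higher and 14.5% were lower. The IR libraries all lay above the untreated libraries for the same 3 members, against 23.8% of genes tested, and all below for *GADD45B*, against 23.3%. *BTG3*, *TOB1* and *TOB2* did not pass the test, and *GADD45G* was near 0. Without IR replicate 3, again 3 members were called higher and 1 lower. The median log2 fold change was 0.14 over the 7 members and 0.01 over all genes tested.

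**Figure D1:**
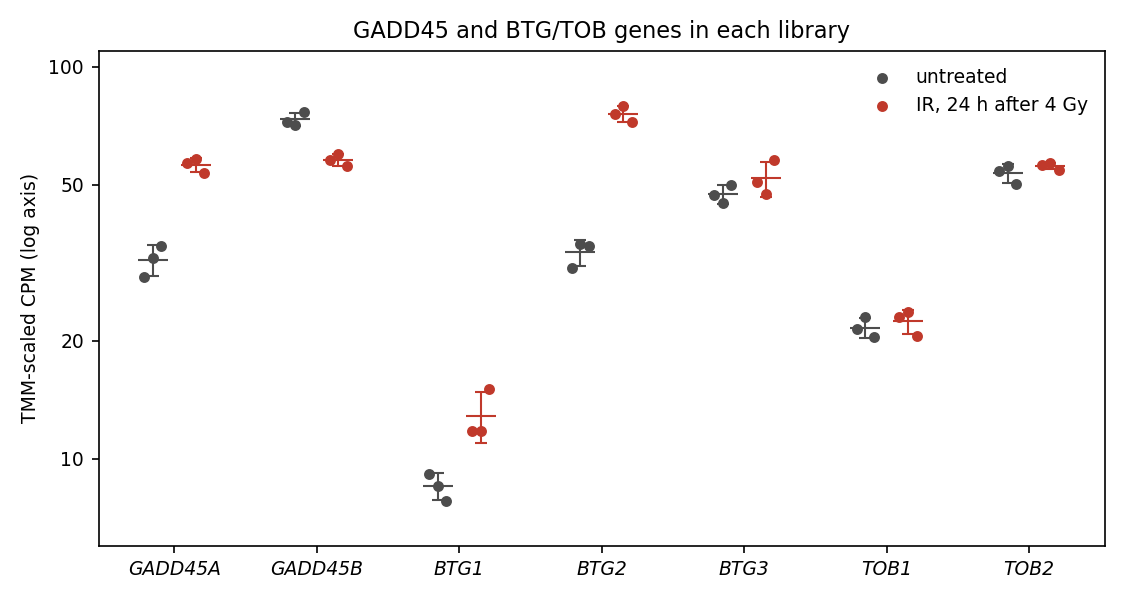
Normalized counts (CPM, relative to library size, log axis) of the 7 tested genes in each library, with horizontal lines at the mean and bars of 1 SD (n = 3 per group). The points of *GADD45A*, *BTG1* and *BTG2* after IR lie above all untreated points, those of *GADD45B* lie below them, and those of *BTG3*, *TOB1* and *TOB2* overlap.

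*GADD45A* (chromosome 1, 67685201 to 67688334, plus strand, 4 exons, GRCh38) is the founding member of its family, named for growth arrest and DNA damage. Its normalized counts (CPM, per library size after TMM scaling) were 29.2, 32.5 and 34.9 CPM in untreated replicates 1 to 3 and 57.0, 58.3 and 53.7 CPM in IR replicates 1 to 3. Every IR library was above every untreated library, and the groups were well apart. The means were 32.2 ± 2.88 and 56.3 ± 2.37 CPM (SD, n = 3), a 1.75-fold increase. The log2 fold change was 0.80 with an SE of 0.08 and a 95% confidence interval of 0.62 to 0.98 (edgeR adjusted p = 0.000291). The two-sided exact permutation test gave p = 0.1, the smallest that 3 against 3 libraries allow. Among the 2227 genes called higher, *GADD45A* stood at place 50 by p and at place 304 by fold change.

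*GADD45B* (chromosome 19, 2476122 to 2478259, plus strand, 4 exons), known as a target of NF-kappaB and TGF-beta signalling, moved the other way. It measured 72.4, 71.3 and 76.7 CPM in the untreated libraries and 58.0, 60.1 and 56.0 CPM after IR. The lowest untreated library was above the highest IR library. The mean fell from 73.4 ± 2.84 to 58.0 ± 2.03 CPM (SD, n = 3), 0.789 of the untreated level. The log2 fold change was -0.34 (SE 0.07, 95% interval -0.49 to -0.19, edgeR adjusted p = 0.00472), and the exact permutation test again gave its smallest value, p = 0.1. In the fit with effective length as an offset the value was -0.23 and the call was lost (edgeR adjusted p = 0.156).

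*GADD45G* (chromosome 9, 89605012 to 89606555, plus strand, 4 exons), the remaining family member, had 0 counts in the untreated libraries and in IR replicate 1, and 1 count in each of IR replicates 2 and 3. A count of 0 allows up to 3 counts, which in the libraries with 0 correspond to between 0.134 CPM (untreated replicate 2) and 0.165 CPM (untreated replicate 1). No fold change can be given at this level. Intervals and limits of this kind cover counting error only.

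Within the GADD45 family the balance moved. The log2 ratio of *GADD45A* to *GADD45B* within a library, which does not depend on library scaling, was -1.31, -1.13 and -1.14 in the untreated libraries and -0.03, -0.04 and -0.06 after IR. *GADD45B* thus had more counts than *GADD45A* in every library, by a smaller margin after IR. The difference of 1.15 was larger than the spread within either group (SD 0.10 and 0.02, n = 3), with p = 0.1 in the exact permutation test and 0.125 after adjustment over the 5 ratios tested.

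*BTG2* (chromosome 1, 203305491 to 203309602, plus strand, 2 exons), also named TIS21 or PC3, an immediate early gene, showed the largest change of the members. It measured 30.7, 35.3 and 34.9 CPM in the untreated libraries and 75.8, 79.7 and 72.5 CPM after IR. The lowest IR library was above the highest untreated library by more than the range of either group. The mean rose 2.25-fold, from 33.7 ± 2.54 to 76.0 ± 3.62 CPM (SD, n = 3). This gave a log2 fold change of 1.17 (SE 0.08, 95% interval 1.00 to 1.34, edgeR adjusted p = 8.51e-05), at place 4 by p and place 94 by fold change among the genes called higher. The exact permutation test gave p = 0.1.

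*BTG1* (chromosome 12, 92140278 to 92145846, minus strand, 2 exons), the closest relative of *BTG2* and a recurrently mutated gene of B cell lymphomas, rose from a lower level. Its values were 9.17, 8.52 and 7.82 CPM in the untreated libraries and 11.8, 11.8 and 15.1 CPM after IR. IR replicate 3 was the highest, and the other 2 IR libraries were still above each untreated library. The mean rose 1.53-fold from 8.50 ± 0.676 to 12.9 ± 1.93 CPM (SD, n = 3), with a log2 fold change of 0.61 (SE 0.13, 95% interval 0.31 to 0.91, edgeR adjusted p = 0.00829) and an exact permutation p of 0.1. Without IR replicate 3 the log2 fold change was 0.46 (edgeR adjusted p = 0.0207).

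*BTG3* (chromosome 21, 17593653 to 17612945, minus strand, 5 exons), also named ANA, measured 47.2, 44.9 and 49.99 CPM in the untreated libraries and 50.8, 47.3 and 57.9 CPM after IR. The groups overlapped, and IR replicate 3 was the highest library. The log2 fold change of 0.14 (SE 0.09, 95% interval -0.05 to 0.33) did not pass the test (edgeR adjusted p = 0.246), and the exact permutation test gave p = 0.2. Without IR replicate 3 the log2 fold change was 0.04.

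*TOB1* (chromosome 17, 50862223 to 50867978, minus strand, 2 exons) and *TOB2* (chromosome 22, 41433494 to 41446801, minus strand, 2 exons) encode the longer TOB proteins, which also bind poly(A)-binding protein. *TOB1* measured 21.4, 23.0 and 20.5 CPM in the untreated libraries and 22.9, 23.7 and 20.6 CPM after IR, and *TOB2* measured 54.4, 56.0 and 50.4 CPM and 56.1, 56.8 and 54.7 CPM. The groups overlapped for both genes. The log2 fold changes were 0.05 for *TOB1* (95% interval -0.15 to 0.24, edgeR adjusted p = 0.724) and 0.06 for *TOB2* (95% interval -0.09 to 0.21, edgeR adjusted p = 0.539). These intervals lie below the point estimates of *GADD45A*, *BTG1* and *BTG2*. The exact permutation tests gave p = 0.6 and 0.2. *BTG4*, a further gene of the family known from oocytes, had between 0 and 6 counts per library and was not tested.

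**Figure D2:**
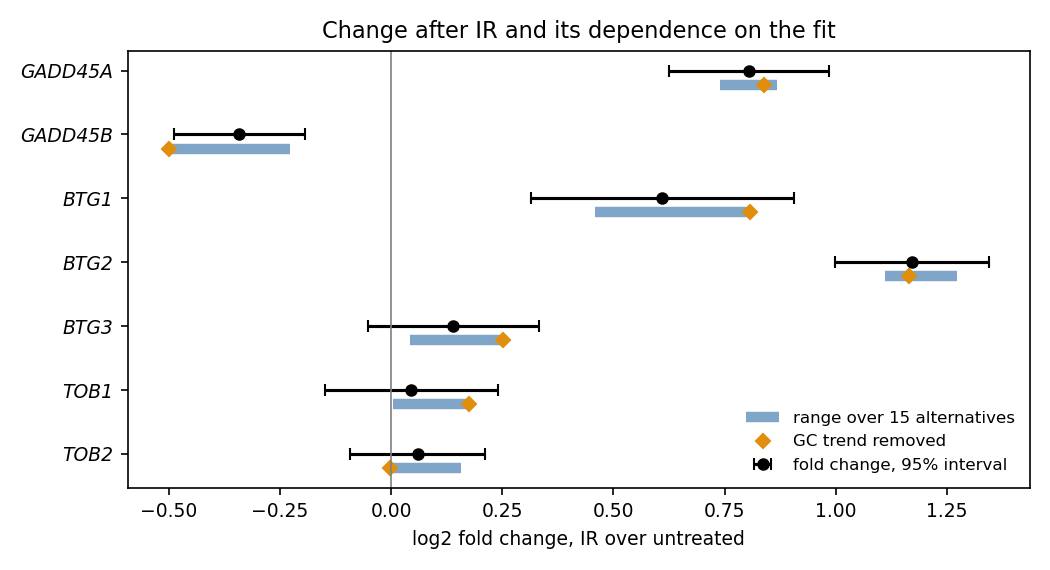
Log2 fold change of IR over untreated for the 7 tested genes (black points, bars are 95% intervals), with the range over 15 alternative fits (blue) and the value with the GC trend removed (orange). *GADD45A*, *BTG1* and *BTG2* stay above 0 and *GADD45B* stays below 0 in each alternative, whereas the range of *TOB2* includes 0.

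The point estimate of the change of *BTG2* was larger than those of its relatives. The log2 ratio of *BTG2* to *BTG3* was -0.62, -0.34 and -0.52 in the untreated libraries and 0.58, 0.75 and 0.32 after IR. *BTG2* thus had fewer counts than *BTG3* in every untreated library and more in every IR library. The mean log2 ratio of counts increased by 1.05. By TPM, and so per length, *BTG3* was above *BTG2* in every library of both groups. The log2 ratio of *BTG2* to *BTG1* increased by 0.59, from 1.98 ± 0.21 to 2.57 ± 0.27 (SD, n = 3), and was lowest after IR in replicate 3, at 2.26. For *GADD45A* against *BTG2* the log2 ratio fell by 0.37, from -0.07 ± 0.06 to -0.43 ± 0.02 (SD, n = 3), which means that *BTG2* rose more. Each of these 3 ratios had p = 0.1 in the exact permutation test and 0.125 after adjustment over the 5 ratios. For *BTG2* to *BTG1* the exact permutation p was 0.2 when any 1 of the untreated libraries was left out. With the GC trend removed, the log2 fold changes of *BTG2* and *BTG1* were nearer to each other, at 1.16 and 0.81. The log2 ratio of *TOB1* to *TOB2* was -1.31 ± 0.03 and -1.32 ± 0.08 (SD, n = 3, exact permutation p = 0.9).

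**Figure D3:**
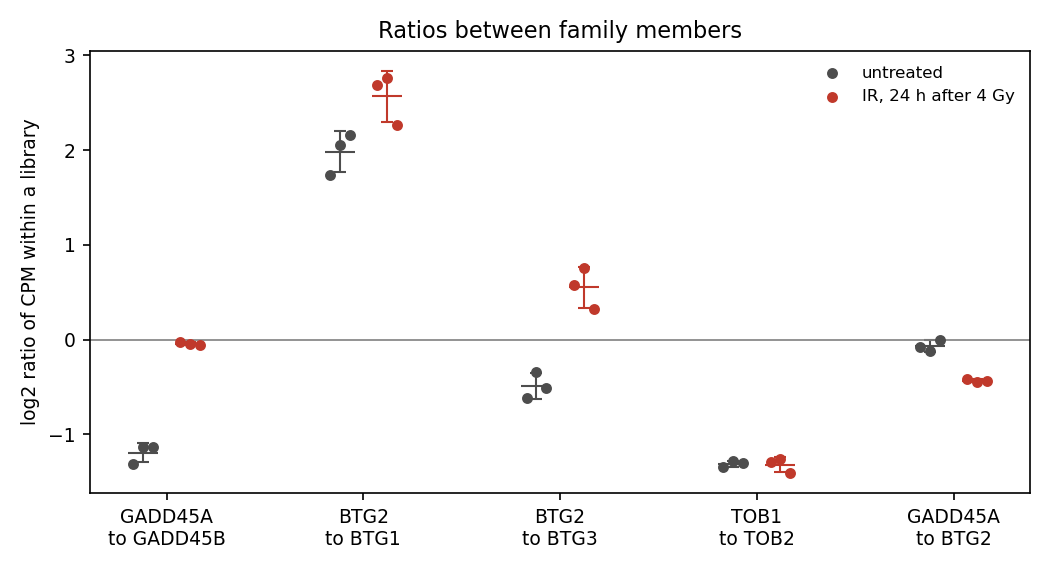
Log2 ratio of the normalized counts of 2 genes within each library for 5 pairs, with lines at the mean and bars of 1 SD (n = 3 per group). The ratios of *GADD45A* to *GADD45B*, *BTG2* to *BTG1* and *BTG2* to *BTG3* are higher in each IR library than in each untreated library, that of *GADD45A* to *BTG2* is lower, and that of *TOB1* to *TOB2* overlaps.

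Levels between genes were compared per length, by the deposited TPM. In untreated cells *GADD45B* (59.3 ± 2.75 TPM), *BTG3* (58.6 ± 2.12 TPM) and *GADD45A* (50.9 ± 6.48 TPM) were the most abundant members (SD, n = 3). Neighbours in this order overlapped, and these 3 genes exceeded 78.2% to 81.1% of tested genes. A gap separated them from *TOB1* (14.5 ± 1.11 TPM), *BTG2* (12.5 ± 0.919 TPM) and *TOB2* (12.3 ± 0.772 TPM), whose neighbours again overlapped. *BTG1* followed at 8.69 ± 1.11 TPM, below each of them in every library, and *GADD45G* was listed at 0.

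After IR the order by TPM changed. *GADD45A* came first at 87.6 ± 2.61 TPM, with no library overlapping *BTG3* (63.5 ± 12.0 TPM), and *BTG3* overlapped *GADD45B* (49.2 ± 6.30 TPM). *BTG2* reached 29.4 ± 2.41 TPM and stood clear of the members above and below it. *TOB1* (14.9 ± 0.291 TPM), *BTG1* (13.8 ± 3.04 TPM) and *TOB2* (13.3 ± 1.498 TPM) did not differ beyond their spread (SD, n = 3). *BTG1*, the lowest of the detected members in untreated cells, thus lay between the TOB genes after IR by its mean only. In IR replicates 1 and 2 *BTG1* was below both TOB genes (12.6 and 11.5 TPM), and in IR replicate 3 it was above both (17.2 TPM).

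The transcripts that carried these values differed between genes. *GADD45A* reads were assigned mainly to GADD45A-205, with 50.5% to 73.0% of the gene's TPM, and to the canonical GADD45A-202, with 25.6% to 41.5%. Both encode protein, and GADD45A-205 is 1093 bases long against 1352 and lacks the exon 3 stretch printed above. GADD45A-205 was at 28.7, 30.5 and 42.4 TPM in the untreated libraries and at 54.8, 60.6 and 45.4 TPM after IR, and GADD45A-202 was at 13.7, 16.9 and 15.2 TPM and at 28.6, 21.7 and 37.3 TPM. The groups did not overlap for either transcript. IR replicate 3 was the lowest IR library for the one and the highest for the other. Since these transcripts share 1093 bases of exon, the split of reads between them depends on the stretches that they do not share.

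*BTG2* was read almost wholly as its canonical BTG2-201 (94.4% to 100% of TPM), a 2-exon transcript of 2729 bases. It stood at 11.4, 13.3 and 12.4 TPM in the untreated libraries and at 27.7, 26.7 and 30.3 TPM after IR. *BTG1* was assigned elsewhere. The canonical, coding BTG1-201 of 4629 bases held 0.506 to 0.672 TPM in the 6 libraries, and 91.0% to 96.5% of the gene's TPM went to BTG1-203, a transcript of 1375 bases with no annotated reading frame. Of its bases, 1323 lie within exons of BTG1-201. BTG1-203 was at 9.12, 8.45 and 6.79 TPM in the untreated libraries and at 11.5, 11.01 and 16.6 TPM after IR. By TPM, the rise of *BTG1* was thus a rise of reads assigned to this transcript. The TPM values of BTG1-201 overlapped between groups, and a change of this transcript alone was not tested. BTG1-201 held 27.7 of 167, 35.9 of 191 and 43.5 of 160 estimated counts of *BTG1* in the untreated libraries. After IR it held 37.1 of 243, 31.7 of 216 and 79.9 of 682. As for *GADD45A*, the split of reads between the 2 transcripts depends on the stretches that they do not share.

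The other members had 1 leading transcript each. GADD45B-201 held 88.0% to 96.3% of the gene's TPM, TOB1-202 97.8% to 100% and TOB2-201 96.7% to 100%. *BTG3* was read as BTG3-202 (78.3% to 87.9%) and BTG3-201 (4.51% to 12.9%). Exons of *BTG1*, *BTG3* and *TOB1* overlap non-coding genes on the opposite strand, and those of *BTG1* also 1 on its own strand, which were not in the transcript tables. Strand use in the counting is not given in the sources used here, and reads of these neighbours could not be told apart from those of the members.

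The GC content of the members touched their values unequally. *BTG1* is GC-poor (39.0%, above 8.16% of tested genes), and the 2032 tested genes within 2 percentage points of it had a median log2 fold change of -0.17, with 3.59% called higher and 30.6% called lower. *BTG1* rose among genes that mostly did not, and with the trend of each library on GC removed its log2 fold change was 0.81 (edgeR adjusted p = 0.00429). *GADD45B* is GC-rich (57.6%, above 78.6% of tested genes), and genes within 2 percentage points of it had a median of 0.17, with 25.2% called higher and 3.92% lower. Its log2 fold change was -0.50 with the trend removed (edgeR adjusted p = 0.00148). *GADD45A* (48.0% GC) and *BTG2* (50.6% GC) lie near the middle, and their log2 fold changes were 0.84 and 1.16 with the trend removed. *BTG3*, *TOB1* and *TOB2* were then at 0.25, 0.17 and -0.00, and none of the 3 passed the test.

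Among 8 partners of GADD45 proteins, 1 rose and 1 fell, and the median log2 fold change over the list was -0.01. Over all genes tested, 15.5% were higher and 14.5% were lower, with a median of 0.01. *CDKN1A*, which encodes the CDK inhibitor p21, rose from 122 ± 1.70 to 351 ± 34.9 CPM (SD, n = 3), by 1.53 on the log2 scale (SE 0.08, edgeR adjusted p = 2.82e-05). *MAP3K4*, the kinase that GADD45 proteins activate, was lower by a log2 fold change of -0.27 (SE 0.08, edgeR adjusted p = 0.0382), a call that 6 of 15 alternatives kept and that was lost without any 1 of the libraries except IR replicate 1. *PCNA*, *CDK1*, *CCNB1*, *ERCC5*, *TDG* and *GADD45GIP1* did not pass the test.

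Of the 10 kinases of the p38 and JNK branches, 3 rose and 2 fell, and their median log2 fold change was -0.01. All genes tested gave 15.5% higher and 14.5% lower, with a median of 0.01. The p38 kinases *MAPK12* (0.50, edgeR adjusted p = 0.00473) and *MAPK11* (0.63, edgeR adjusted p = 0.00832) and the p38 activator *MAP2K3* (0.54, edgeR adjusted p = 0.0151) were higher by log2 fold change. Another p38 activator, *MAP2K6* (-0.92, edgeR adjusted p = 0.0263), and the p38 kinase *MAPK13* (-0.67, edgeR adjusted p = 0.0428) were lower, from levels of only 3.14 and 2.36 CPM. With the GC trend removed *MAPK12* was at 0.16 and *MAPK11* at 0.29 and neither passed, and *MAP2K6* was not called either. *MAP2K3* was at 0.32 without IR replicate 3, where it kept its call, and lost it without untreated replicate 3. *MAPK13* was called in 4 of 15 alternatives and *MAP2K6* in 8. Of these 2 calls, 0 were made without untreated replicate 1 or 2 or IR replicate 1 or 3, and 1 without untreated replicate 3 or IR replicate 2. The JNK genes *MAPK8* and *MAPK9* and the widely expressed p38 gene *MAPK14* did not pass.

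Of 19 deadenylation genes, which include the complex that BTG/TOB proteins recruit, none rose and 4 fell, and their median log2 fold change was -0.08. For comparison, 15.5% of all genes tested were higher and 14.5% were lower, and their median was 0.01. *CNOT1*, the scaffold of CCR4-NOT, fell from 325 ± 22.6 to 234 ± 18.8 CPM (SD, n = 3), with a log2 fold change of -0.48 (SE 0.08, edgeR adjusted p = 0.00240). *PAN3*, a subunit of the PAN2-PAN3 deadenylase, was at -0.31 (edgeR adjusted p = 0.0225), *CNOT10* at -0.24 (edgeR adjusted p = 0.0230) and the deadenylase *CNOT6* at -0.21 (edgeR adjusted p = 0.0441). With the GC trend removed *CNOT1* was at -0.41 and kept its call, whereas *PAN3*, *CNOT10* and *CNOT6* were at -0.11, -0.11 and -0.07 and lost theirs. Of these 4 calls, 2 remained without untreated replicate 1 (*CNOT1* and *PAN3*), and 1 (*CNOT1*) without untreated replicate 3 or without IR replicate 2. With the effective length offset *CNOT1* was at -0.30 and lost its call (edgeR adjusted p = 0.143). *CNOT7*, whose product binds BTG/TOB proteins directly, was at -0.22 and did not pass (edgeR adjusted p = 0.0665), and its paralogue *CNOT8* was at -0.05.

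Of 8 transcription factors and cofactors known to act on these families, *EGR1*, an immediate early factor, rose and *BRCA1*, a repair factor, fell. Across all genes tested, 15.5% were higher and 14.5% were lower. *EGR1* had a log2 fold change of 0.52 (SE 0.12, edgeR adjusted p = 0.00934) and *BRCA1* of -0.53 (SE 0.07, edgeR adjusted p = 0.00125), and both were called in 15 of 15 alternatives.

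**Figure D4:**
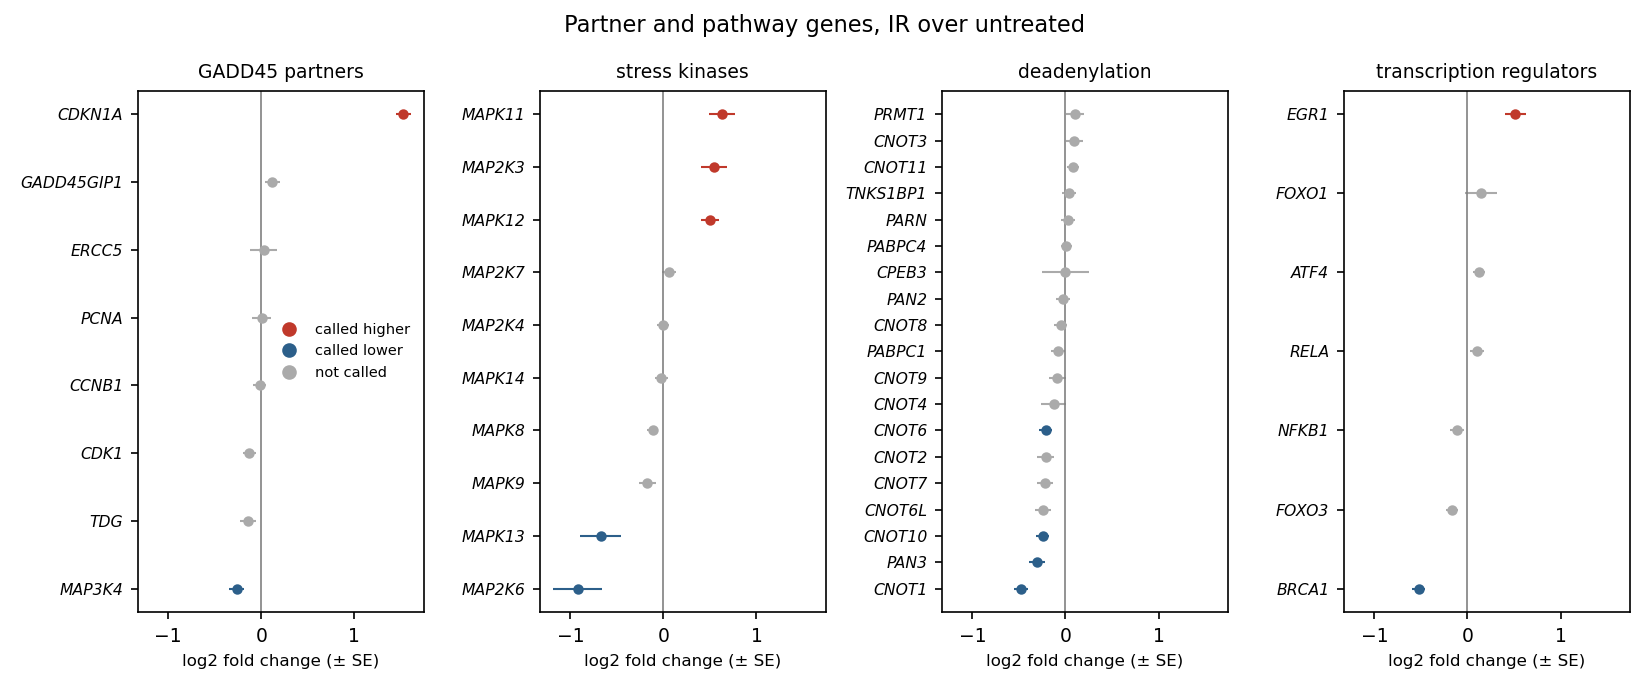
Log2 fold change (± SE) of IR over untreated for genes of 4 lists, 1 gene per line, with genes called higher in red, lower in blue and not called in grey. *CDKN1A* at 1.53 stands above the other genes shown, no deadenylation gene is called higher, and *CNOT1* at -0.48 is the lowest of that list.

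The genes whose normalized counts followed those of a member most closely over the 6 libraries were sought among 11513 genes whose counts averaged 100 or more. They were *MAP3K12* and *RAB7B* for *BTG2* (r = 0.999 and 0.998), *SPTBN5* and *CHD9NB* for *GADD45A*, *ACY1* for *BTG1*, and *PTMA* and *FAM76B* for *GADD45B*. In these 4 members the 6 points form the untreated and the IR group, and between 2.82% and 5.32% of the genes searched exceeded r = 0.95. The members that did not pass the test had fewer such genes (0.0955% to 0.313%). Their closest were *PDGFA* and *YARS2* for *BTG3*, *KCNJ5-AS1* and *MAX* for *TOB1* and *KSR1* and *PNPLA4* for *TOB2*. These correlations are a description over 6 libraries, and the points share library, group and depth.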

How the data were processed

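RNA of U-2 OS cells was sequenced in 6 libraries, 3 untreated and 3 after IR. Per the labels poly(A) RNA and a kit for mRNA were used, but the methods of the study give a total RNA kit. The authors assigned reads with kallisto to transcripts of GENCODE release 37 (GRCh38) and deposited an estimated count, not normalized, and a TPM value, which the authors had scaled by effective length and by library total, per transcript. Gene symbols and coordinates came from GENCODE release 44 by transcript identifier (158711 of 161171, with 98.2% to 98.5% of counts). Per gene, the estimated counts were summed and rounded, and TPM was summed. Effective lengths were used as an offset in 1 alternative and can hold the authors' correction of sequence bias.

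The quasi-likelihood test of edgeR (4.0.16, under R 4.3.3) was applied after filterByExpr and TMM scaling, and p was adjusted over all genes by Benjamini-Hochberg with a threshold of 0.05. The version of DESeq2 was 1.42.0 and that of limma 3.58.1. TMM factors ranged from 0.982 to 1.01. Ratios of members within a library used a prior of 0.5 counts. The 15 alternatives were no filter, at least 10 counts in every library, scaling by DESeq2, its Wald test, the likelihood ratio test in edgeR, a block for replicate number, subtraction of the GC trend per library, both together, an effective length offset, and leaving out each library. The deepest library, IR replicate 3, has the smallest counting error, and its file bears a mark that may stand for a repeat. In simulated counts for IR against untreated (14245 genes), a log2 change of 1 was recovered in 93% of changed genes and a log2 change of 0.5 in 60%, with 10 false calls. The simulation gave all genes the same dispersion and changed far fewer genes than were called here. It held no GC trend and no divergent library, so these shares need not hold for the data.

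The members and lists were chosen with earlier results of these data known. Named genes are the members and *BTG4*, up to 4 called genes of lowest p per direction and list, the 2 genes most correlated with each tested member, and transcripts with at least 10% of a member's TPM in any library. Genes named beyond this rule as not called were chosen after their values were seen. Transcript sequences came from GENCODE release 44. Some genes that the rules select are not reported here. Other experiments of the study were not analysed here.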

Additional observations from a re-analysis of the deposited data

How the results depend on the processing

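Of the 7 tested members, *GADD45A*, *BTG1* and *BTG2* kept direction and call in 15 of 15 alternatives, over 0.74 to 0.87, 0.46 to 0.81 and 1.11 to 1.27 on the log2 scale. *GADD45B* lost its call with the effective length offset (log2 fold change -0.23), leaving 0 members called lower there. *BTG3* passed with the replicate block together with GC removal (0.24), and *TOB2* turned sign with GC removal alone (-0.0021). The cause was not tested in these cases. The pathway lists held 8 genes called lower, and this total, which under other settings can include genes outside the 8, was 4 with the replicate block, 5 with GC removal, 4 with both, 3 with the length offset and 3 to 7 without 1 library in turn (3 without untreated replicate 1 or IR replicate 2, 4 without untreated replicate 2 or 3 or IR replicate 3). Of the 5 called higher, 3 were called with GC removal. The log2 ratio of *TOB1* to *TOB2* differed between groups by -0.0397 to 0.0339 without 1 library in turn, on both sides of 0. Over all genes tested, 2227 were called higher (15.5%) and 2080 lower (14.5%) in the main fit. With GC removal these totals were 1716 and 1747, and with GC removal and the block together 1518 and 1566. They were 837 and 875 with the length offset, and 1295 to 2114 and 1244 to 2284 without 1 library in turn. Replicate numbers are shared between the groups, and the labels do not say whether they pair the libraries. Deviations from the group mean had correlations of -0.01, -0.06 and -0.09 between libraries of the same number. With 3 libraries per group and a divergent IR replicate 3, these cannot decide the question. The replicate block moved the counts to 1727 higher and 1624 lower. Depth limits *GADD45G* and *BTG4*, which could not be tested.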
